A study of Mus musculus with 12 samples.

Results

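The neutrophil genes and neutrophil-attracting chemokines of mouse liver were followed through the first day after partial hepatectomy. They are the 9 genes S100a8, S100a9, Ngp, Retnlg, Camp, Ltf, Cxcl1, Cxcl2 and Cxcr2, of 19259 named genes on the array, chosen by name and found through the RefSeq transcript identifier printed for each array probe. Each was read by 1 probe. Livers came from male wild-type C57BL/6 mice, 6 weeks old, 3 mice at each of 4 time points: 0 h (the reference), 1.5 h, 12 h and 24 h after surgical removal of 2/3 of the liver. No sham-operated mice were among the samples, so the changes below hold the effects of surgery and anaesthesia and of the hour of sampling as well as of the lost liver mass, and these cannot be told apart. Total RNA of whole liver was hybridised in a single colour to a long noncoding RNA array that also carries probes for protein-coding genes.

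Neutrophils are short-lived white blood cells that leave the blood for injured tissue. The chemokines Cxcl1 and Cxcl2, released by hepatocytes, macrophages and endothelial cells, act on neutrophils through the receptor Cxcr2. Their cytoplasm is rich in S100a8 and S100a9, which pair as calprotectin, and their granules hold antimicrobial proteins such as cathelicidin (Camp), lactoferrin (Ltf) and the neutrophilic granule protein (Ngp), which are largely transcribed while the cell matures in bone marrow. In whole tissue, more cells of a type and more RNA per cell cannot be told apart.

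Promoters of 7 members are shown first, as the 250 bases before the annotated start site, 5′ to 3′ on the gene's own strand, from RefSeq on build GRCm38.p6. All 9 members matched an entry. Cxcl1 and Cxcl2, neighbours on chromosome 5, are shown because both hold a stretch that matches the consensus of NF-kappaB, the factor that inflammatory signals activate. It stands in capitals, as does the TATAAA box of S100a8 and each match to TTGCNNAA, a form of the site bound by the C/EBP factors of granulocyte development, in S100a9, Ngp, Retnlg and Ltf.
Cxcl1, chr5:90890995-90891244, plus strand: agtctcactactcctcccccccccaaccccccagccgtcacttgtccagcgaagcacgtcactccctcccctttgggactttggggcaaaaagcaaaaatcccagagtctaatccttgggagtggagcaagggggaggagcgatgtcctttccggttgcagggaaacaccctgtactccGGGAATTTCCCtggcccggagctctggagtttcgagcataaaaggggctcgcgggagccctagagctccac
Cxcl2, chr5:90903649-90903898, plus strand: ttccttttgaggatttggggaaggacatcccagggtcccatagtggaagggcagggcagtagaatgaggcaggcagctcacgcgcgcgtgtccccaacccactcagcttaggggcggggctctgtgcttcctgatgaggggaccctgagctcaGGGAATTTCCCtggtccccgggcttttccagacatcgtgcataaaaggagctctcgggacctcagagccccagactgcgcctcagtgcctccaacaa
S100a8, chr3:90668821-90669070, plus strand: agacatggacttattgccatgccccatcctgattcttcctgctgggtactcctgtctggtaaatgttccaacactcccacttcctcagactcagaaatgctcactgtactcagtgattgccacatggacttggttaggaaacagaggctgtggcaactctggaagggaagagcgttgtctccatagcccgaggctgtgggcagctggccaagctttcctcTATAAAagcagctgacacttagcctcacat
S100a9, chr3:90695722-90695971, minus strand: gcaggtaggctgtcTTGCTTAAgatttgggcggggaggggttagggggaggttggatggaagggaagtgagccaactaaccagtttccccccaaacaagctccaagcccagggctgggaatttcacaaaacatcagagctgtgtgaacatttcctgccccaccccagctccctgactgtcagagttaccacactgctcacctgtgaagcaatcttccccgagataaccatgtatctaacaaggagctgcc
Ngp, chr9:110419558-110419807, plus strand: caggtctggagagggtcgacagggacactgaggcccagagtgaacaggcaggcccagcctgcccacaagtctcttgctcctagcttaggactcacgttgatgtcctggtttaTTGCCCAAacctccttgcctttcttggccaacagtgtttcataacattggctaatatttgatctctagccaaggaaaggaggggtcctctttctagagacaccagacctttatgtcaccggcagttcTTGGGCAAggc
Retnlg, chr16:48872358-48872607, plus strand: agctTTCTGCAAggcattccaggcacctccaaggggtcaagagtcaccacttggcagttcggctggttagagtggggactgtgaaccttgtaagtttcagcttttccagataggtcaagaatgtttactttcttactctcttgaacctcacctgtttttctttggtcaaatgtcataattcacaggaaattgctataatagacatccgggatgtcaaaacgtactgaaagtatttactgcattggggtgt
Ltf, chr9:111019042-111019291, plus strand: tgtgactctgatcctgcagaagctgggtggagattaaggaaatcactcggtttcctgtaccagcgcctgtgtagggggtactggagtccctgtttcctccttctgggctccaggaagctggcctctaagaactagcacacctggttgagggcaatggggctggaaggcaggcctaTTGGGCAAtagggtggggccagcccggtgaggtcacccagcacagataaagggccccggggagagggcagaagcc
The capitals of Cxcl1 and Cxcl2 spell the same 11 bases, GGGAATTTCCC, which matches the NF-kappaB consensus on both strands in overlapping positions, at -71 to -61 from the start in Cxcl1 and at -97 to -87 in Cxcl2. Of 32817 RefSeq promoter windows of this length, 3.9% held such a match, and among the members it was found in 2 of 9. TTGCNNAA, searched on both strands, was present in 4 of 9 members, namely S100a9, Ngp, Retnlg and Ltf, against 9.57% of all windows, and Ngp held 2 copies. TATAAA, searched on the gene's strand, was present in 1 of 9 members and in 7.6% of all windows. These matches describe the letters of the windows, and no binding was measured here.

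Signals are given as relative signal, the spot's processed intensity divided by the 75th percentile of all intensities on the same array, and tests were run on its log2 value. The 3 arrays of a time point are named as replicates 1, 2 and 3. S100a8, S100a9, Retnlg, Camp and Cxcl1 were well above background, as the scanner software judges it, on 12 of 12 arrays. Ngp and Cxcl2 were not well above background on any array at 0 h and were so on all 9 arrays after surgery. Cxcr2 reached that level on 5 arrays and Ltf on 2. Ltf therefore missed the filter, which asked for at least 3 of 12 arrays, and 8 of the 9 members were tested.

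**Figure D1:**
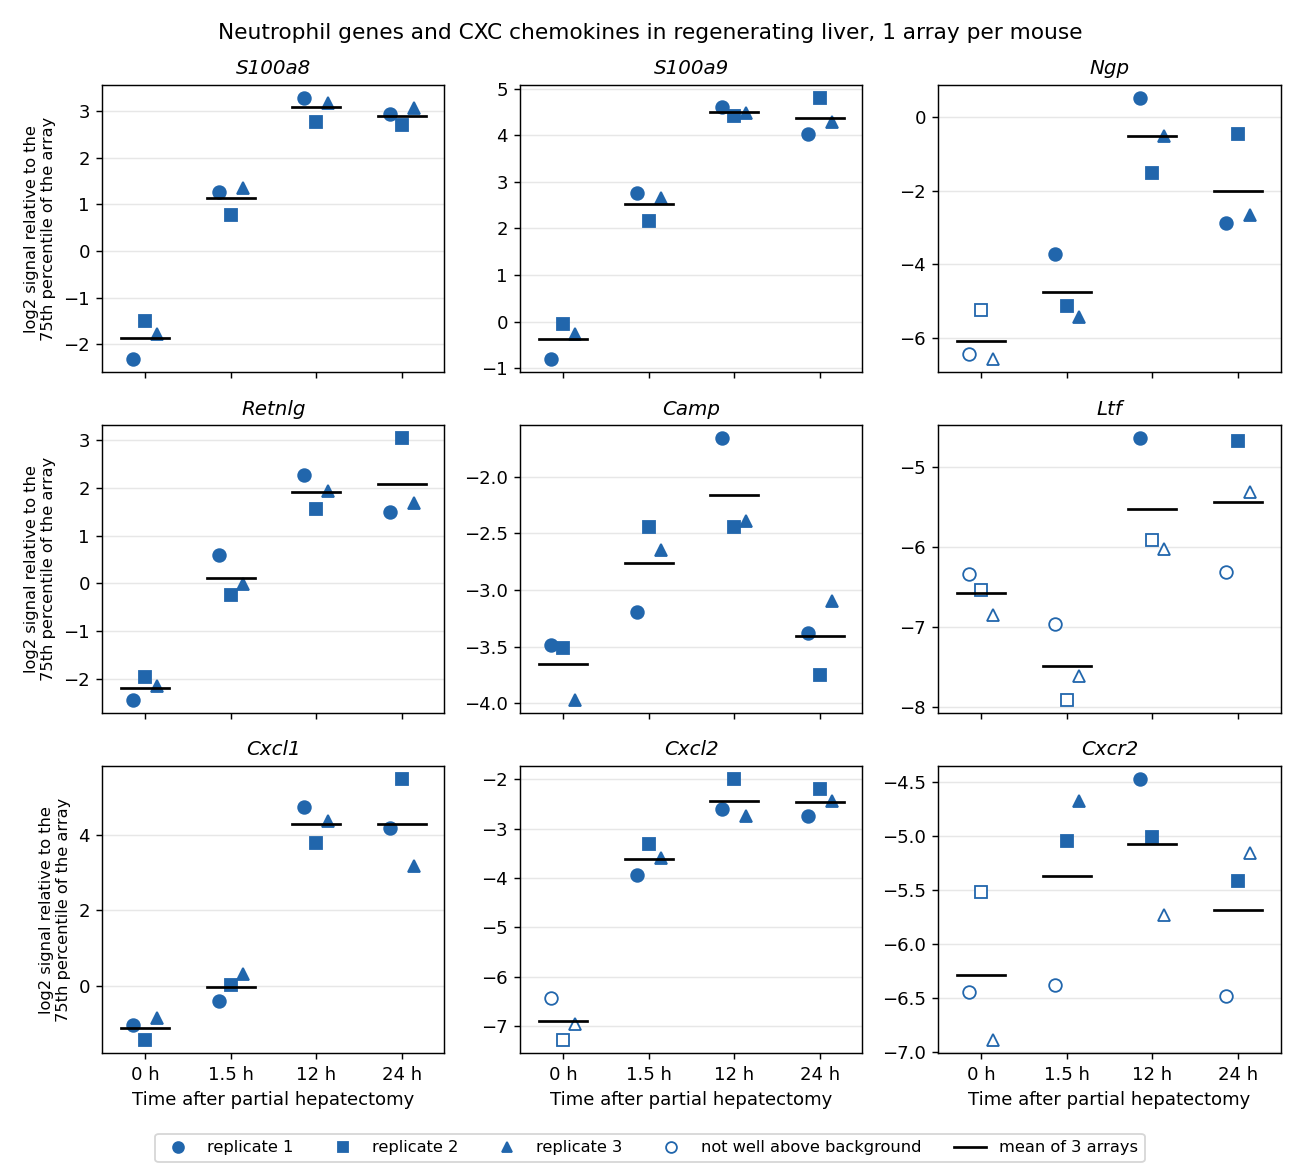
Signal of the 9 member genes on each of 12 arrays, as log2 of the signal relative to the array's 75th percentile (vertical axis) against time after partial hepatectomy (horizontal axis). Symbols mark replicates, open symbols a spot not well above background and lines the mean of 3 arrays. S100a8, S100a9, Retnlg and Cxcl1 climb to a plateau at 12 and 24 h, whereas Camp is high at 12 h and lower again at 24 h.

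Across the whole array, 31168 of 37246 probes were tested. Between 62.8% and 85.4% of spots were well above background. The second array at 24 h stood apart: its 75th percentile was 6018, against 428 to 584 on the 11 other arrays, and its correlation over all probes with the other 24 h arrays was 0.906 and 0.912, against 0.972 to 0.989 for every other pair of arrays of one time point. It was also the only array of this series on its slide, where arrays that share a scan identifier are taken as 1 slide. Slide 1 held the 3 arrays of 0 h and the first of 1.5 h, slide 2 the other 1.5 h arrays with the first and the second of 12 h, and slide 3 the third of 12 h with the first and the third of 24 h. The 0 h arrays thus shared a slide with 1 later array only. Against 0 h, the probes past an adjusted p of 0.05 (limma, Benjamini-Hochberg over all tested probes) numbered 7 for the 1.5 h livers, where 2000 had an unadjusted p under 0.05, 4775 for the 12 h livers and 1701 for the 24 h livers. Without the second array at 24 h these numbers of calls were 185, 15342 and 5288. The shares of all probes given below are those of the fit with all 12 arrays. Over all 12 arrays, the median change of all tested probes was 0.17, 0.42 and -0.15 on the log2 scale in those comparisons, and -0.49 for 24 h against 12 h. For coding probes alone the 4 medians were 0.07, 0.24, -0.06 and -0.14. For 24 h against 12 h the median of all probes was -0.09 after quantile normalization and -0.95 after normexp correction.

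S100a8, S100a9 and Cxcl2 were higher than at 0 h from 1.5 h on, and Cxcl1, Retnlg, Ngp and Camp passed the test first at 12 h, all but Camp again at 24 h. Passing at one time point and not at another is no test of the order between genes: Retnlg, Cxcl1 and Camp also lay above 0 h on every 1.5 h array without passing. Against 0 h, 3 of the 8 tested members rose at 1.5 h, where 0.0225% of all probes rose. At 12 h 7 rose, against 7.06% of probes, and at 24 h 6 rose, against 2.84%. No member fell at an adjusted p under 0.05, against 0.0%, 8.26% and 2.62% of probes, nor did any at an unadjusted p under 0.05. The members' median change was 1.81, 4.67 and 4.35 on the log2 scale, and with dim groups at their bounds it was 1.26, 4.29 and 3.62. Ngp, Cxcl2 and Cxcr2, 3 of the 8, passed the detection filter only through the time points after surgery. Among the tested members, all 3 arrays lay above all 3 of 0 h for 6, 7 and 6 genes, where this held for 16.4%, 40.7% and 13.2% of probes, and below them for none, against 9.26%, 20.8% and 13.8%. Comparing 12 h with 1.5 h, 6 of 8 rose, against 3.33% of probes, and none fell, against 5.0%. There the arrays lay apart upwards for 7 members, against 20.2% of probes, and downwards for none, against 16.3%. Comparing 24 h with 12 h, none rose at an adjusted p under 0.05, against 6.26% of probes, and Camp fell, against 6.78%. At an unadjusted p under 0.05 none rose either. All arrays lay higher for none, against 14.4%, and lower for Camp, against 27.2%.

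**Figure D2:**
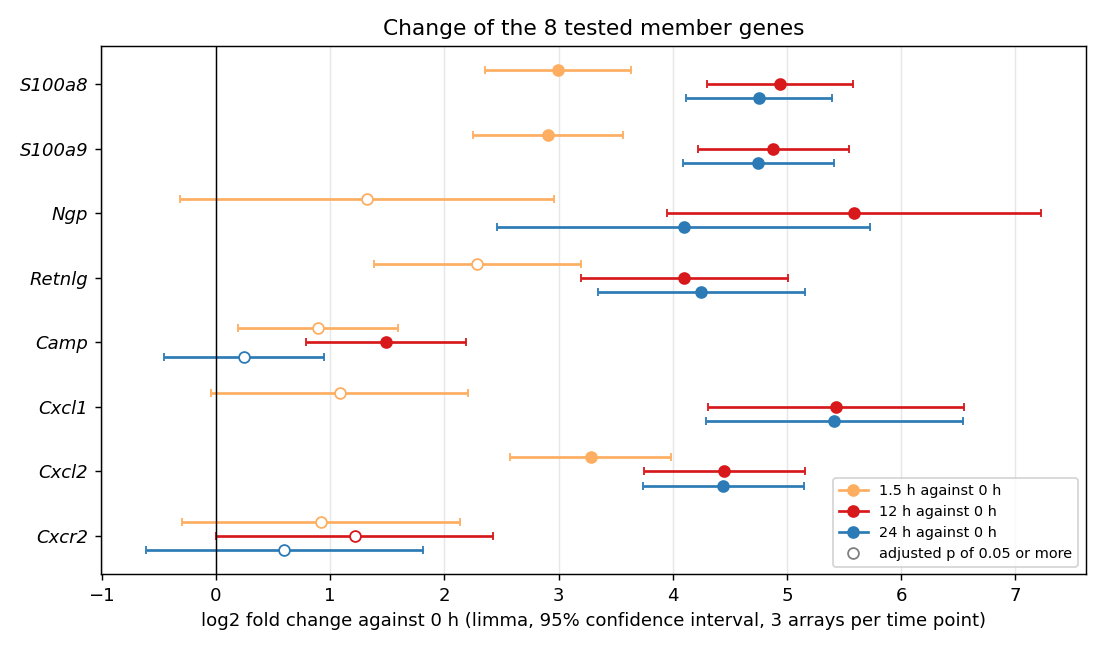
Change of the 8 tested members against 0 h on the log2 scale (horizontal axis), with 95% confidence intervals from limma over 3 arrays per time point; filled points have an adjusted p under 0.05. At 12 and 24 h all members but Camp and Cxcr2 sit between 4.09 and 5.59, and the values of Ngp, Cxcl2 and Cxcr2 are set against 0 h spots that were not well above background.

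Both chemokines rose. Cxcl2 passed the test at 1.5, 12 and 24 h, and Cxcl1 at 12 h, when it stood 43.1-fold above 0 h, and at 24 h. At 24 h neither differed from 12 h beyond the spread of the arrays.

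Cxcl1 had relative signals of 0.486, 0.365 and 0.548 at 0 h. At 1.5 h its 3 arrays read 0.746, 1.01 and 1.23. All 3 lay above the 0 h arrays, and the mean was 2.12-fold higher (log2 1.08 ± 0.51 SE, limma adjusted p = 0.770). At 12 h the arrays read 27.2, 13.8 and 20.7. At 24 h they read 18.4, 45.3 and 9.04, which spans the values at 12 h on both sides. Cxcl1 was 43.1-fold higher at 12 h than at 0 h (95% confidence interval 19.8 to 93.9, limma adjusted p = 0.00017, n = 3 arrays per time point). The step from 1.5 h to 12 h was 20.4-fold (log2 4.35 ± 0.51 SE, limma adjusted p = 0.000778). Within slide 2, which held 2 arrays of each of these time points, the same step was 17.4-fold. At 24 h Cxcl1 was 42.6-fold above 0 h (limma adjusted p = 0.000372). With slide as a fixed block in the model that difference was 4.14 on the log2 scale with an adjusted p of 0.112, so this call was lost. No slide held both time points, so the value with the block joins differences within separate slides. Without the second array at 24 h, and without the block, the difference from 0 h was 4.81 (adjusted p = 9.1e-05).

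Cxcl2 gave relative signals of 0.0116, 0.00638 and 0.00798 at 0 h, none well above background. At 1.5 h it read 0.0651, 0.102 and 0.0824, all above every 0 h array. At 12 h the values were 0.164, 0.252 and 0.150, and at 24 h 0.150, 0.218 and 0.186. The 12 h and 24 h arrays overlapped, and all 6 lay above the 3 at 1.5 h. Because the 0 h spots give only an upper bound, the rise is stated as a lower bound: at least 2.70-fold at 1.5 h, at least 6.07-fold at 12 h and at least 6.03-fold at 24 h. These bounds hold for the relative signals used here and not for other background corrections. The limma tests were run on the unbounded differences of 3.28, 4.45 and 4.44 on the log2 scale (adjusted p = 0.00907, 3.75e-05 and 8.22e-05). From 1.5 to 12 h Cxcl2 rose 2.25-fold (limma adjusted p = 0.0467), a call that was lost under quantile normalization (adjusted p = 0.0617) and whenever any array but the second at 24 h was left out (adjusted p between 0.0525 and 0.182). The early call depended on how background was removed: after normexp correction the 1.5 h difference fell to 0.63 on the log2 scale (adjusted p 1.00), and the 24 h difference to 1.17 (adjusted p = 0.270). Slide as a block gave 2.96 at 1.5 h (adjusted p = 0.0552) and 4.26 at 24 h (adjusted p = 0.0527).

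Both chemokines were also compared on the same arrays. The within-array log2 difference of Cxcl1 minus Cxcl2 averaged 3.58 ± 0.30 (SD, n = 3) at 1.5 h and 6.75 ± 0.85 at 12 h, so Cxcl1 gained 9.06 times more than Cxcl2 over that interval. The 3 arrays of 12 h all lay above the 3 of 1.5 h. An exact two-sided permutation test gave p = 0.1, the smallest that 3 against 3 arrays allow, and 0.4 after Benjamini-Hochberg adjustment over 8 such comparisons. From 12 to 24 h this difference moved by -0.01 (exact permutation p = 1). Under normexp correction that last value was 1.06.

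**Figure D3:**
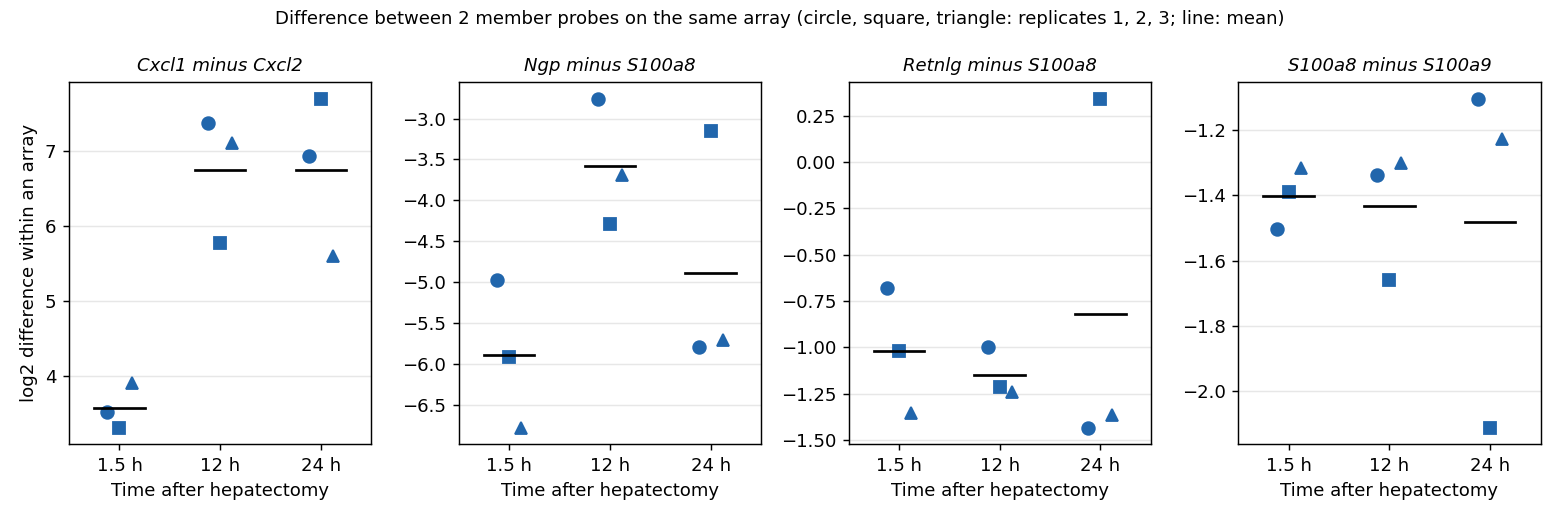
Log2 difference between the signals of 2 member probes on the same array (vertical axes) at 1.5, 12 and 24 h (horizontal axes), with replicates as symbols and means as lines. The level of a panel depends on the probes and is not read; only shifts between time points are. Cxcl1 minus Cxcl2 and Ngp minus S100a8 are higher on every 12 h array than on every 1.5 h array, while Retnlg minus S100a8 and S100a8 minus S100a9 overlap.

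The receptor stayed near the detection limit. Cxcr2, through which both chemokines act, had relative signals of 0.0115, 0.0217 and 0.00842 at 0 h, none well above background. At 1.5 h it read 0.0120, 0.0303 and 0.0392, at 12 h 0.0450, 0.0311 and 0.0188, and at 24 h 0.0112, 0.0234 and 0.0281. The groups overlapped at every time point, and within each time point after surgery at least 1 array was not well above background. The difference from 0 h was 0.92, 1.21 and 0.60 on the log2 scale at 1.5, 12 and 24 h, with 95% confidence intervals of -0.30 to 2.13, 0.00 to 2.43 and -0.62 to 1.81. None passed the test (limma adjusted p = 0.777, 0.154 and 0.566). Since the 0 h spots only bound the level from above, a change of the receptor's RNA was not detectable here.

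The calprotectin genes rose together and early. S100a9 and S100a8 were 7.50- and 7.95-fold higher at 1.5 h and 29.5- and 30.6-fold higher at 12 h, and at 24 h they stood 26.9- and 27.0-fold above 0 h.

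S100a8, a calcium-binding alarmin, had relative signals of 0.200, 0.355 and 0.292 at 0 h. At 1.5 h the arrays read 2.40, 1.71 and 2.55, at 12 h 9.68, 6.79 and 9.04, and at 24 h 7.59, 6.46 and 8.30. Every array after surgery lay above every 0 h array, and those of 12 and 24 h above those of 1.5 h. The rise was 7.95-fold at 1.5 h (95% confidence interval 5.11 to 12.4, limma adjusted p = 0.00907), 30.6-fold at 12 h (19.7 to 47.6, adjusted p = 1.41e-05) and 27.0-fold at 24 h (17.3 to 42.0, adjusted p = 3.67e-05). Between 1.5 and 12 h S100a8 rose 3.85-fold (limma adjusted p = 0.00259). Within slide 2 that step was 3.89-fold.

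S100a9, its partner, read 0.570, 0.967 and 0.828 at 0 h. It read 6.81, 4.47 and 6.35 at 1.5 h, 24.5, 21.5 and 22.3 at 12 h, and 16.3, 27.9 and 19.5 at 24 h. The same order held as for S100a8, with 12 and 24 h overlapping. The rise was 7.50-fold at 1.5 h (limma adjusted p = 0.00955), 29.5-fold at 12 h (adjusted p = 1.48e-05) and 26.9-fold at 24 h (adjusted p = 4.18e-05). From 1.5 to 12 h it was 3.93-fold (adjusted p = 0.00282). The difference of S100a8 minus S100a9 on the same array moved by -0.03 from 1.5 to 12 h and by -0.05 from 12 to 24 h on the log2 scale (exact permutation p = 0.9 and 1).

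The calls at 1.5 h rest on 3 arrays a side. Leaving out the third array of 0 h or the third of 1.5 h moved the adjusted p of S100a8, S100a9 and Cxcl2 to 0.0690 and 0.0947, with differences between 2.84 and 3.28 on the log2 scale. Leaving out the first array of 0 h gave an adjusted p of 0.050009 for S100a8 and 0.0694 for S100a9. With slide as a block the 1.5 h difference of S100a8 was 3.13 (adjusted p = 0.0501).

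The secreted resistin-like gene passed the test at 12 and 24 h. Retnlg, a secreted protein abundant in neutrophils and their marrow precursors, read 0.185, 0.259 and 0.224 at 0 h. At 1.5 h it read 1.50, 0.841 and 0.995, at 12 h 4.85, 2.93 and 3.82, and at 24 h 2.81, 8.18 and 3.22. All arrays after surgery lay above those of 0 h, and the second array at 24 h was far above its 2 companions. At 1.5 h the difference was 4.89-fold (95% confidence interval 2.61 to 9.16), with a limma adjusted p of 0.147. It passed without the second array at 24 h (adjusted p = 0.0134) and with slide as a block (adjusted p = 0.0473). Retnlg was 17.2-fold higher at 12 h (limma adjusted p = 0.00024) and 19.0-fold higher at 24 h (limma adjusted p = 0.000402). The step from 1.5 to 12 h was 3.51-fold (limma adjusted p = 0.0214). Leaving out the second or the third array of 1.5 h, or the first or the third of 12 h, raised that p to between 0.0727 and 0.0921.

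Of the granule genes, Ngp passed the test at 12 and 24 h, Camp at 12 h, and Ltf was not tested. Ngp, a cathelicidin-related granule protein, read 0.0114, 0.0265 and 0.0104 at 0 h, none well above background. At 1.5 h it read 0.0764, 0.0282 and 0.0231, the lowest of which lies below the highest 0 h value. At 12 h the values were 1.43, 0.348 and 0.701, and at 24 h 0.137, 0.727 and 0.158. All 12 h and 24 h arrays lay above all arrays of 1.5 h. Ngp was at least 22.4-fold higher at 12 h than at 0 h and at least 7.95-fold higher at 24 h, bounds that hold for the relative signals used here. The limma tests were run on the unbounded differences of 5.59 and 4.09 on the log2 scale (adjusted p = 0.000972 and 0.0121). From 1.5 to 12 h, where both groups were measured, it rose 19.1-fold (95% confidence interval 6.16 to 59.5, limma adjusted p = 0.00551). After normexp correction the 12 h difference was 2.49 on the log2 scale (adjusted p = 0.0152) and the step from 1.5 to 12 h 2.33 (adjusted p = 0.0288). The 24 h call was lost with slide as a block (log2 4.92, adjusted p = 0.196), with only the 2 time points compared (adjusted p = 0.0906), without the first 0 h array (adjusted p = 0.0623) and after normexp correction (log2 1.55, adjusted p = 0.255). Without the second array at 24 h it kept its call at 3.33 (adjusted p = 0.00947), against 4.09 over all arrays.

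Ngp was also set against S100a8 on the same arrays. The difference of Ngp minus S100a8 rose by 2.32 on the log2 scale from 1.5 to 12 h, with all 3 arrays of 12 h above the 3 of 1.5 h (exact permutation p = 0.1, adjusted 0.4). From 12 to 24 h it moved by -1.31 (exact permutation p = 0.3). The difference of Retnlg minus S100a8 moved by -0.13 and 0.33 in the same intervals (exact permutation p = 0.7 and 1), and without the second array at 24 h the latter was -0.25.

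Camp, the precursor of the antimicrobial peptide cathelicidin, had the smallest changes against 0 h among the 5 members well above background on every array. It read 0.0893, 0.0876 and 0.0638 at 0 h, and 0.109, 0.183 and 0.160 at 1.5 h. At 12 h it read 0.316, 0.184 and 0.191, and at 24 h 0.0962, 0.0742 and 0.117. The 12 h arrays lay above those of 0 h and of 24 h, and the 24 h arrays overlapped those of 0 h. At 1.5 h Camp was 1.86-fold higher, with all 3 arrays above those of 0 h (limma adjusted p = 0.679). It was 2.81-fold higher at 12 h (95% confidence interval 1.73 to 4.57, limma adjusted p = 0.0107). At 24 h the difference from 0 h was 0.25 on the log2 scale (adjusted p = 0.687). The rise at 12 h lost its call with slide as a block (log2 0.95, adjusted p = 0.273), after normexp correction (adjusted p = 0.197), and without the third 0 h array or the first 12 h array (adjusted p = 0.053 and 0.0519). The step from 1.5 to 12 h did not pass (adjusted p = 0.364). From 12 to 24 h Camp fell by 1.24 on the log2 scale (limma adjusted p = 0.0357).

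Lactoferrin was not measurable in most livers. Ltf, an iron-binding granule protein, read 0.0123, 0.0107 and 0.00867 at 0 h, 0.00801, 0.00415 and 0.00512 at 1.5 h, 0.0399, 0.0165 and 0.0153 at 12 h, and 0.0126, 0.0391 and 0.0250 at 24 h. Only the first array of 12 h and the second of 24 h were well above background, and the probe was not tested.

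No difference between 24 h and 12 h was found for calprotectin, Retnlg or the chemokines, within wide limits. The 95% confidence interval of the fold of 24 h over 12 h was 0.566 to 1.37 for S100a8, 0.577 to 1.44 for S100a9, 0.592 to 2.08 for Retnlg, 0.454 to 2.15 for Cxcl1 and 0.610 to 1.62 for Cxcl2. None of these passed the test (limma adjusted p between 0.633 and 0.983). Ngp differed by -1.49 (adjusted p = 0.150), and without the second array at 24 h, which read 0.727 beside 0.137 and 0.158, it fell by 2.26 (adjusted p = 0.0424). The fall of Camp depended on the settings: it was -0.70 after quantile normalization (adjusted p = 0.109), -0.85 with slide as a block (adjusted p = 0.174) and -0.99 without the first array of 12 h (adjusted p = 0.144). Across settings the differences of S100a8, S100a9, Retnlg, Cxcl1 and Cxcl2 between these time points took both signs. The median over all probes itself moved from -0.49 to -0.09 after quantile normalization and to -0.95 after normexp correction. It was -0.22 without the second array at 24 h.

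Within slide 1, the single 1.5 h array exceeded the mean of the 3 arrays of 0 h by 3.13 for S100a8, 3.14 for S100a9, 2.96 for Cxcl2 and 2.77 for Retnlg on the log2 scale. The same difference was 2.38 for Ngp (1.33 over all arrays), 0.70 for Cxcl1 (1.08), 0.46 for Camp (0.89) and -0.0963 for Cxcr2 (0.92). Within slide 2, the pair of 12 h arrays exceeded the pair of 1.5 h arrays by 1.96 for S100a8, 2.11 for S100a9, 2.04 for Retnlg, 4.79 for Ngp, 4.12 for Cxcl1, 1.15 for Cxcl2, 0.49 for Camp and 0.12 for Cxcr2. No slide held both 0 h arrays and arrays of 12 or 24 h, so those comparisons have no within-slide value. With slide as a fixed block, every difference from 0 h therefore rests on the single 1.5 h array of slide 1. Those of 24 h rest also on the single 12 h array of slide 3. The second array at 24 h, alone on its slide, adds nothing to them.

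Other genes of neutrophils moved in part with the members. Of 19 tested granule and granule-related genes, 9 rose and 1 fell at 12 h, beside 7.06% and 8.26% of all probes. At 24 h again 9 rose and 1 fell, beside 2.84% and 2.62%. None passed at 1.5 h, where 4 were higher and 1 was lower at an unadjusted p under 0.05. At 0 h 14 to 16 of the 20 genes on the array were already well above background, and the list's summed relative signal, most of it from Hp and Wfdc21 which hepatocytes make, was 435 to 515, 510 to 525, 891 to 1311 and 331 to 840.0 at 0, 1.5, 12 and 24 h. Their median change was 1.15 at 12 h and 1.38 at 24 h, against 0.42 and -0.15 over all probes. With dim groups at their bounds these medians were 1.01 and 0.58. Lcn2, an iron-siderophore-binding protein that hepatocytes also release, rose 442-fold at 12 h (log2 8.79 ± 0.57 SE, limma adjusted p = 1.96e-05) and 269-fold at 24 h. Mmp8, the neutrophil collagenase, rose at least 4.19-fold at 12 h and at least 2.70-fold at 24 h (limma adjusted p = 0.000484 and 0.00324). Slpi, a protease inhibitor, rose 7.51-fold and 11.9-fold (limma adjusted p = 0.0141 and 0.0129).

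Of 19 tested surface and oxidase genes, 9 rose at 12 h and 6 at 24 h, beside 7.06% and 2.84% of all probes. None fell, beside 8.26% and 2.62%, nor was any lower at an unadjusted p under 0.05. None passed at 1.5 h, where 7 were higher at an unadjusted p under 0.05. The median change was 1.31 and 0.98. Il1r2, a decoy receptor for interleukin 1, rose 14.2-fold at 12 h (limma adjusted p = 0.000146) and 7.33-fold at 24 h. Mcemp1, a surface protein of myeloid cells, rose 7.59-fold and 8.73-fold, and Trem3, a receptor of myeloid cells, 5.72-fold and 5.92-fold. The summed relative signal of this list was 4.51 to 6.28 at 0 h, 6.17 to 8.31 at 1.5 h, 7.92 to 9.59 at 12 h and 8.76 to 9.38 at 24 h.

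**Figure D4:**
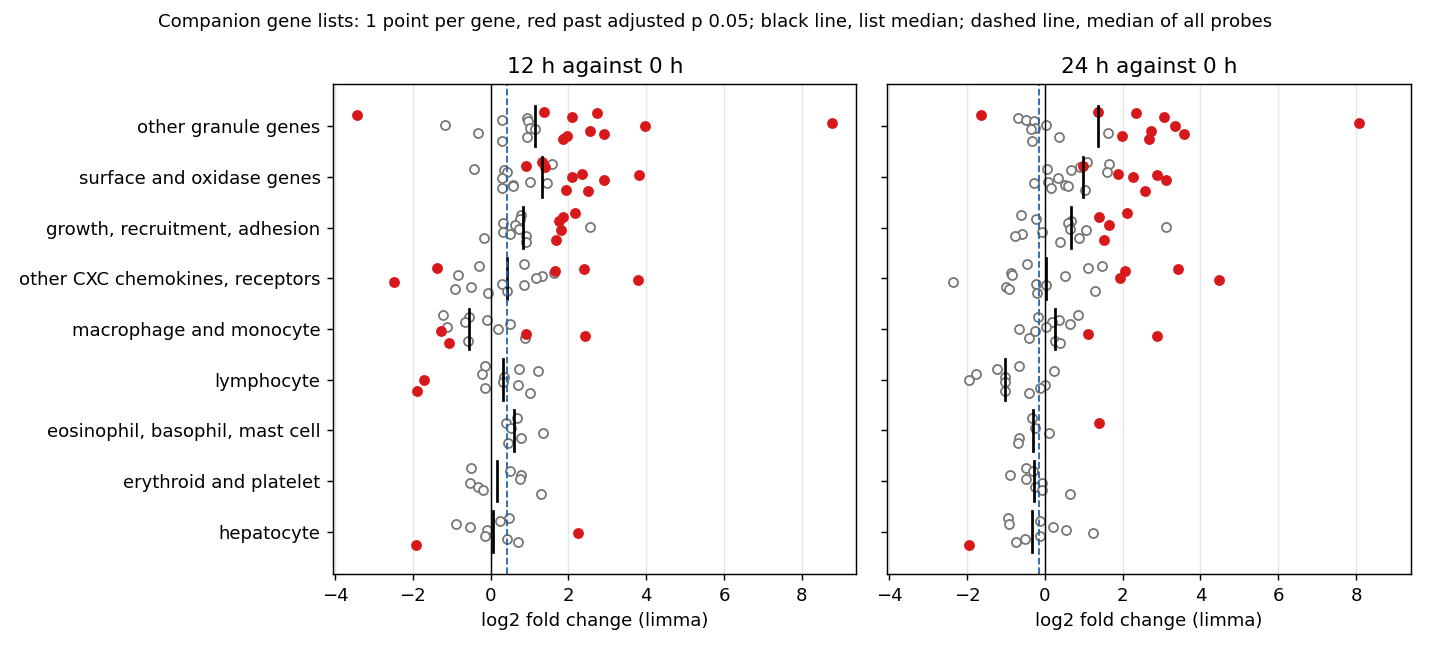
Log2 fold change at 12 h and 24 h against 0 h (horizontal axes) of each tested gene in 9 companion lists (vertical axis), red where the limma adjusted p was under 0.05. The black line is the list's median and the dashed line that of all probes. The medians of the granule and surface lists lie to the right of the dashed line in both panels, and those of the lymphocyte, erythroid and hepatocyte lists to its left. At 12 h the lymphocyte median of 0.31 is above that of coding probes alone, 0.24, which is not drawn.

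Of 17 tested genes for other CXC chemokines and for receptors of CXC chemokines, 3 rose and 2 fell at 12 h, beside 7.06% and 8.26% of all probes. At 24 h 4 rose and none fell, beside 2.84% and 2.62%. Cxcl5, another neutrophil attractant that acts through Cxcr2, rose 13.9-fold at 12 h (log2 3.80 ± 0.67 SE, limma adjusted p = 0.00409) and 22.4-fold at 24 h (adjusted p = 0.00477). Cxcl13, which attracts B cells, rose 5.27-fold and 10.7-fold (adjusted p = 0.00715 and 0.00314). Cxcl9, an interferon-induced attractant of T cells, fell by 2.49 on the log2 scale at 12 h (adjusted p = 0.0396). The list's median change was 0.41 and 0.03, and none of its genes passed at 1.5 h, where 1 was lower at an unadjusted p under 0.05.

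Of 16 tested genes for the growth, recruitment and adhesion of neutrophils, 5 rose at 12 h and 4 at 24 h, beside 7.06% and 2.84% of all probes. None fell, beside 8.26% and 2.62%, nor was any lower at an unadjusted p under 0.05. The median change was 0.84 and 0.67. C5ar1, the receptor for the complement fragment that draws neutrophils, rose at least 2.46-fold at 12 h and at least 2.38-fold at 24 h (limma adjusted p = 0.00353 and 0.0104). Icam1, the endothelial ligand on which neutrophils arrest, rose 3.65-fold at 12 h and 2.64-fold at 24 h (adjusted p = 0.00395 and 0.0338). Myd88, the adaptor of the Toll-like and interleukin 1 receptors, rose 3.49-fold at 12 h (adjusted p = 0.00473).

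Markers of other cells gave the following. The liver's own identity was plain: 9 to 10 of 10 hepatocyte markers were well above background on each array, with a summed relative signal of 1260 to 1353 at 0 h, 1406 to 2155 at 1.5 h, 1631 to 2705 at 12 h and 768 to 1384 at 24 h. Of these, Fgb rose and Ttr fell at 12 h (log2 2.25 and -1.93, limma adjusted p = 0.00511 and 0.0016). Of 13 macrophage and monocyte markers, all well above background on every array, 2 rose and 2 fell at 12 h, beside 7.06% and 8.26% of all probes. At 24 h 2 rose, beside 2.84%, and none fell. Their median change was -0.56 at 12 h and 0.26 at 24 h, against 0.42 and -0.15 over all probes. Summed signals were 47.2 to 79.3, 59.0 to 97.0, 44.2 to 65.8 and 68.9 to 110.2 at the 4 time points. Marco, a scavenger receptor of macrophages, rose 5.42-fold at 12 h and 7.41-fold at 24 h (limma adjusted p = 0.00814 and 0.00944), Csf1r fell by 1.27 at 12 h (adjusted p = 0.0381), and Ly6c2, a marker of inflammatory monocytes, rose 2.17-fold at 24 h (adjusted p = 0.0415). Monocytes also transcribe S100a8, S100a9 and Cxcl2, and the share of the members' rise that came from them was not tested.

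Of 11 tested lymphocyte markers, none rose (1 was higher at 12 h at an unadjusted p under 0.05). Ms4a1 and Cd79b of B cells fell at 12 h (limma adjusted p = 0.00971 and 0.0495), where 7.06% of all probes rose and 8.26% fell. After normexp correction Ms4a1 differed by 0.55 at 12 h, with its sign turned (limma adjusted p = 0.540). At 24 h none passed, while 5 were lower at an unadjusted p under 0.05. The list's median change was 0.31 at 12 h and -1.01 at 24 h, against 0.42 and -0.15 over all probes. Coding probes alone had medians of 0.24 and -0.06, so at 12 h the list lay below the one median and above the other. Its summed signal was 29.2 to 40.2, 35.4 to 57.7, 53.6 to 75.1 and 9.74 to 49.7 at the 4 time points. Of 6 tested eosinophil, basophil and mast cell markers, Ear1 alone rose, at 24 h (2.61-fold, limma adjusted p = 0.0358), where 2.84% of all probes rose. Fcer1a was not well above background on any array, and the summed signal was 8.23 to 13.7, 11.7 to 20.1, 11.6 to 20.1 and 3.75 to 15.6. None of 8 tested erythroid and platelet markers passed against 0 h, also at an unadjusted p under 0.05, and their summed signal was 40.6 to 44.0, 43.6 to 51.5, 26.9 to 34.9 and 25.0 to 55.2. The blood left in the liver at sampling was not measured beyond these markers.

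The genes whose time course was most like that of S100a8 were S100a9 (Pearson r = 0.992 over 12 arrays), Cldn15 (0.970), Ch25h (0.966), Retnlg (0.965) and Ccl6 (0.963), of 16525 coding genes compared. For Ngp they were Fpr2 (0.975), Slc10a6, B3galt1, Sult1e1 and Cd14 (all 0.967). For Cxcl1 they were Timp1 (0.980), Ctsj (0.977), Lbp, Cyb561 and Bmper (all 0.976). The 12 arrays share 4 time points, so these values describe a common course and carry no test. Without the second array at 24 h the correlation of S100a8 was 0.998 with S100a9 and 0.993 with Retnlg. Ccl6 and Ch25h left the first 5 of S100a8, for ranks 8 and 9. Cd14 and Sult1e1 left the first 5 of Ngp, for ranks 7 and 9. All 5 genes named for Cxcl1 left its first 5: Timp1 moved to rank 7, Ctsj to 14, Lbp to 15, Cyb561 to 17 and Bmper to 20.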

How the data were processed

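Scanner files of 12 single-colour Agilent arrays (Mus musculus liver, 4 time points, 3 mice each) were used. Their intensity values were deposited by the authors as written by Agilent Feature Extraction 10.5.1.1, per the submitters' processing notes, and per the file headers the processed intensity is already background-corrected. The authors' deposited value table of log2 values, whose normalization is not given in the sources used here, served as an alternative and covered 5 of the members. Control and negative-control spots and outlier-flagged spots were left out. Spots of a probe were averaged, the 75th percentile of each array was subtracted on the log2 scale, and probes well above background on at least 3 of 12 arrays were kept (31168). Precision is limited by the 3 arrays per time point; the p-values reflect the spread between these arrays.

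All 12 arrays entered one limma 3.58.1 fit (R 4.3.3, lmFit and eBayes, two-sided, Benjamini-Hochberg over all kept probes, threshold 0.05), with 1 mean per time point; the procedure was tested on simulated data. A time point with all spots dim gives a lower bound: the brighter group's mean over the mean of, per array, the higher of the lowest signal among probes well above background and the dim probe's own. An adjusted p printed with a bound tests the unbounded difference, and the bounds were computed for this processing only. For genes with several probes the brightest was used. Differences between 2 probes on the same array were compared by exact permutation tests. Promoter windows and gene names came from RefSeq tables, and no genome was used here.

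The members and lists were chosen with earlier results of these data known. Named were all members, up to 3 called genes per list with the largest change against 0 h, and the 5 coding genes most correlated with S100a8, Ngp and Cxcl1. The rule does not cover the genes of the closing observations, which were singled out with their values known. Alternatives were normexp correction (offset 50), quantile normalization, the authors' values, no filter or a filter on all 12 arrays, slide or replicate number as a block, only the compared time points, robust moderation, and each array left out. The correlations without the second array at 24 h and the alternatives of the within-array differences were chosen after seeing the data. The labels state no pairing of the mice by replicate number. Deviations of same-numbered arrays correlated between -0.42 and 0.41, which cannot decide the question with 3 arrays per time point. No array was flagged for single members, since groups of 3 are too small for an outlier test. Ly6g, Cxcl11, Cd68 and Hbb-b1 were not analysed here.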

Additional observations from a re-analysis of the deposited data

How the results depend on the processing

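The rise of S100a8, S100a9, Cxcl1, Cxcl2, Ngp and Retnlg at 12 h kept its call under every alternative that held the gene, while its size moved. After normexp correction it was 4.19 for S100a8, 3.17 for Retnlg, 2.49 for Ngp and 1.86 for Cxcl2 on the log2 scale, and with slide as a fixed block 7.17 for Ngp, 4.81 for Retnlg and 4.82 for Cxcl1. The values with the block join differences within separate slides, since no slide held arrays of both 0 h and 12 h. Retnlg at 24 h was 3.64 after normexp correction. Of 8 tested members, 3 passed at 1.5 h. This number was 1 after normexp correction, 0 with the replicate block and 0 with only the 2 time points compared, and 0 to 4 with an array left out. Of all 31168 probes, 7 were called at 1.5 h in the fit used above. Under those settings 4, 0 and 0 were, and 0 to 185 with an array left out. At 12 h 7 members passed (6 to 7 with an array left out), and at 24 h 6 passed, 3 with slide as a fixed block and 5 to 6 with an array left out. Over all probes the block left 83 calls at 24 h, against 1701 without it. For 12 h against 1.5 h 6 members passed, 3 after normexp correction and 4 to 6 with an array left out. Of all probes 2596 were called there, and 671 after normexp correction. For 24 h against 12 h 1 member passed, and 0 did after normexp correction, after quantile normalization, with slide as a fixed block, with the replicate block and with only the 2 time points compared. The whole array gave 4063 calls there in the fit used above. Under those settings it gave 228, 5334, 2766, 1261 and 0, in that order. With an array left out, 0 to 2 members passed: 0 without each of 8 arrays in turn, and 2 without the second array at 24 h. The replicate block leaves the model fewer residual degrees of freedom, and why calls were lost under it was not tested. Signs turned for the following differences, not all of them small. Cxcr2 gave -0.0963 (1.5 h) and -0.0628 (24 h against 0 h) with slide as a block, -0.39 for the latter after normexp correction, and after quantile normalization -0.0319 from 1.5 to 12 h and 0.29 from 12 to 24 h. Camp at 24 h against 0 h was -0.15 after normexp correction. For 24 h against 12 h, normexp correction gave 0.23 for S100a8, 0.36 for S100a9 and 0.37 for Cxcl1. In the same comparison Retnlg was -0.0471 (quantile), -0.0858 (the authors' values) and -0.35 (slide), and Cxcl2 0.42 (quantile) and 0.16 (slide). Ms4a1 at 12 h, which had passed as a fall, was 0.55 after normexp correction, against -2.10 to -1.75 with an array left out. Of within-array differences, Cxcl1 minus Cxcl2 for 24 h against 12 h was 1.06 and S100a8 minus S100a9 for 12 h against 1.5 h was 0.0571 after normexp correction. With an array left out, ranges that crossed 0 were -0.21 to 0.64 for Cxcr2 from 1.5 to 12 h and, from 12 to 24 h, -0.35 to 0.0393 for S100a9, -0.33 to 0.44 for Retnlg, -0.62 to 0.54 for Cxcl1 and -0.16 to 0.22 for Cxcl2. For the within-array differences they were -0.49 to 0.56 for Cxcl1 minus Cxcl2, -0.25 to 0.64 for Retnlg minus S100a8 and -0.24 to 0.27 for S100a8 minus S100a9 at 24 h against 12 h, and -0.30 to 0.0370 and -0.0962 to 0.0837 for the last 2 pairs in the step from 1.5 to 12 h. The causes were not tested. Over all probes, higher and lower calls for 24 h against 12 h were 1951 and 2112, and 198 and 30 after normexp correction. At 12 h against 0 h they were 2199 and 2576, and 321 and 742.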

Other observations

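The granule list gave the following values beside those above. Mpo, Elane, Prtn3 and Ctsg, which encode the primary granule proteins made by early marrow precursors, were well above background on 12 of 12 arrays, and none passed at 1.5, 12 or 24 h against 0 h in limma, nor had an unadjusted p under 0.05 in any of these 12 comparisons (log2 differences between -0.69 and 1.61). At 12 h Mpo was 2.22-fold and Ctsg 1.92-fold above 0 h, each with all 3 arrays above the 3 of 0 h (limma adjusted p = 0.162 and 0.180). Ctsg fell by 1.63 on the log2 scale from 12 to 24 h (limma adjusted p = 0.0446). Cebpe, a transcription factor of granulocyte development, fell by 3.43 at 12 h (adjusted p = 0.000604) and by 1.64 at 24 h (adjusted p = 0.0464). Chil3 rose 4.23-fold at 12 h and 8.39-fold at 24 h (limma adjusted p = 0.00197 and 0.000683), Pglyrp1 5.86-fold and 6.66-fold (adjusted p = 0.0033 and 0.00637), and Stfa2l1 3.64-fold and 6.37-fold (adjusted p = 0.00726 and 0.00311). Mmp9 was 2.01-fold and Stfa2 1.90-fold higher at 12 h without passing (limma adjusted p = 0.0660 and 0.0807), and Lyz2 differed by -1.18 on the log2 scale (adjusted p = 0.165). Fcnb was not well above background on any array. These genes were singled out after their values were seen. Csf3, which drives the release of neutrophils from marrow, did not pass against 0 h and fell by 1.38 from 12 to 24 h (limma adjusted p = 0.043).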
